A study of Oncorhynchus mykiss with 6 samples.

Results

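The miR-29 family was taken as every sequence of the deposited table whose name holds miR-29 or mir-29, with any letter, arm or ending, which gave 19 of 1389 sequences. The livers came from wild type juvenile rainbow trout (strain label Walbaum) that had interacted in dyads for 4 d. The 3 socially subordinate (SS) fish are replicates 4A, 6A and 1B, and the 3 socially dominant (SD) fish are replicates 4B, 6B and 21A, with 1 small RNA library per fish. By the study's account the SD fish generally took the food, the SS fish went without, and plasma cortisol was higher in SS fish, so that status, feeding and cortisol cannot be told apart in these groups.

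miR-29 genes are transcribed into a hairpin that is cut into a 5p strand and a 3p strand. In mammals the 3p strand is usually the more abundant. Its seed (bases 2 to 8), which is the main contact with a target transcript, is shared by miR-29a, miR-29b and miR-29c, and its known targets include transcripts of collagens and of the enzymes that set new DNA methylation. In rodents, hepatic miR-29 is known to be raised in insulin-resistant animals. The 5p strand has a seed of its own and is less well known. In bulk liver, fewer cells of a type and less RNA per cell cannot be told apart.

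The sequences fall into arms by their own letters, which matters here because 6 of the 19 names give no arm. The 3p strands were recognised by AGCACCA at bases 2 to 8, which 8 of the 1389 sequences of the table hold (0.576%), 6 of them members. The 5p strands were recognised by TTTC within the first 11 bases and TGGTG after it, which 10 of the 1389 hold (0.720%), 9 of them members. The 2 predicted sequences outside the family with the 3p seed, PC-3p-69060_3 and PC-3p-53963_5, rested on 6.5 counts together. The sequences below are those on which the comparison turns, the 2 leading 3p forms and the 4 leading 5p forms, as the authors' table gives them in DNA letters, 5′ to 3′, with bases 2 to 8 in capitals.
dre-miR-29b, 3p: tAGCACCAtttgaaatcagtgt
ssa-miR-29b-3p, 3p: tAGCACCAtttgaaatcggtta
ssa-miR-29b-2-5p_L-2, 5p: aCTGATTTcctctggtgtttaga
ipu-miR-29a_R+2, 5p: aCTGATTTcctctggtgttca
ssa-miR-29c-5p, 5p: aCTGTTTTcttttggtgtttaga
dre-mir-29b-2-p5, 5p: cTGGTTTCacatggtggtttaga

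The names open with the species of the miRBase entry (dre for zebrafish, ssa for Atlantic salmon, ipu for channel catfish), and the endings give bases gained (R+2) or lost (L-2) and bases substituted. All 6 3p members share 1 seed, because the rule for that arm asks for it. The rule for the 5p arm does not fix the seed, and the 9 5p members carry 6 different ones. Counted from 1 at the 5′ end of dre-miR-29b, ssa-miR-29b-3p differs from it by A18G, G21T and T22A, all outside the seed. It is also the whole of dre-miR-29a_R+1 but for the 1 base that dre-miR-29a_R+1 adds at its 3′ end, so the letters a and b in these names do not mark different sequences. The form with the ending L-2 is called miR-29b-2-5p from here on. Its seed was read from its own letters. The miRBase entry, against which it has lost bases, was not compared and may have another seed. Counted from the 5′ end of this form, ipu-miR-29a_R+2 differs by T20C and is 2 bases shorter, and ssa-miR-29c-5p differs by A5T, C10T and C12T. Bases 1 to 9 of miR-29b-2-5p are the unbroken complement of bases 12 to 20 of dre-miR-29b, and the longest such run it has with ssa-miR-29b-3p is 6 bases. The letters of the rare 5p form ssa-miR-29b-3-5p_L-1 gave an 8-base run with ssa-miR-29b-3p.

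Expected counts were deposited: where a read matched more than 1 sequence it was divided among them, and 10 of the 19 members carried such fractions. How reads were divided among near-identical members is uncertain. Levels are given as normalized reads, the authors' counts divided by a size parameter for each library. Total counts ranged from 1183289 to 3382970 per library, and 1 read was worth 0.564 to 1.44 normalized reads. The family held 10308 counts in all, of which 57.0% were 5p, 42.4% were 3p and 0.558% belonged to 4 members of neither arm. Only 5 members passed the filter on low counts and were tested, 2 of the 3p and 3 of the 5p arm. Another 4 members had a total of 10 or more counts, and the remaining 10 members had 0.5 to 9.5 counts each and 22.3 together.

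In sum, SS livers held more miR-29 than SD livers. miR-29b-2-5p alone took on average 58.2% of the family's counts in SS and 47.6% in SD fish. Summed over the 19 members, the family stood at 2219, 2385 and 2528 normalized reads in SS fish 4A, 6A and 1B, against 1108, 719 and 1014 in SD fish 4B, 6B and 21A. The groups did not overlap, and on this scale the 3 SS fish were at about the same level. The means were 2377 ± 155 in SS fish, against 947 ± 203 in SD fish (mean ± SD, n = 3 each), a ratio of 2.51, where the values after ± are the standard deviation of the fish, as in all such means here. As a share of all counts in the table, which does not use the size parameter, the family took 0.132% ± 0.0224 in SS fish, against 0.0552% ± 0.0175 in SD fish (mean ± SD, n = 3 each). By that share the SS fish were less even, from 0.113% in 6A to 0.157% in 1B. These sums are described without a test, because the family was chosen with results of these data known.

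Among single sequences, 1 of the 5 tested members passed the edgeR quasi-likelihood test (Benjamini-Hochberg adjusted p under 0.05), the 5p strand miR-29b-2-5p, which was higher in SS livers. Over all 338 sequences tested, 0.592% were called higher in SS fish and 0% lower. At an unadjusted p under 0.05, 3 of the 5 members were higher in SS fish (7.1% of all sequences tested) and none was lower (3.85% of all). Fitted values were above 0 for 4 of the 5 members and for 49.7% of all sequences tested. The median log2 fold change was 1.06 over the 5 members and -0.02 over all 338 sequences. Of the 9 members with 10 or more counts, the SS fish were all above the SD fish in 6, all below them in 0, and overlapped with them in 3. Over the 618 sequences of the table with that many counts, these shares were 9.55% all above and 7.28% all below. As CPM of the table total (counts scaled to a common total, with no size parameter), 4 of the 9 members were all above. The 2 members dre-miR-29b and dre-miR-29a_R+1 then overlapped. On that scale 7.44% of the 618 sequences were all above and 9.55% all below, so that more lay below than above, unlike in normalized reads. TMM and RLE scaling left 6 members all above. Over the 618 sequences, 9.06% were all above and 8.58% all below with TMM, against 10.03% and 7.28% with RLE. Of the members with few counts, ssa-mir-29a-p3_1ss10CT reached 10 only through the SS fish and dre-miR-29a_R+1 partly so. fru-mir-29b-2-p5_1ss18GA reached 10 mostly through the SD fish. The count of members is therefore a description. Members can share reads or a hairpin, so they do not count as separate observations.

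**Figure D1:**
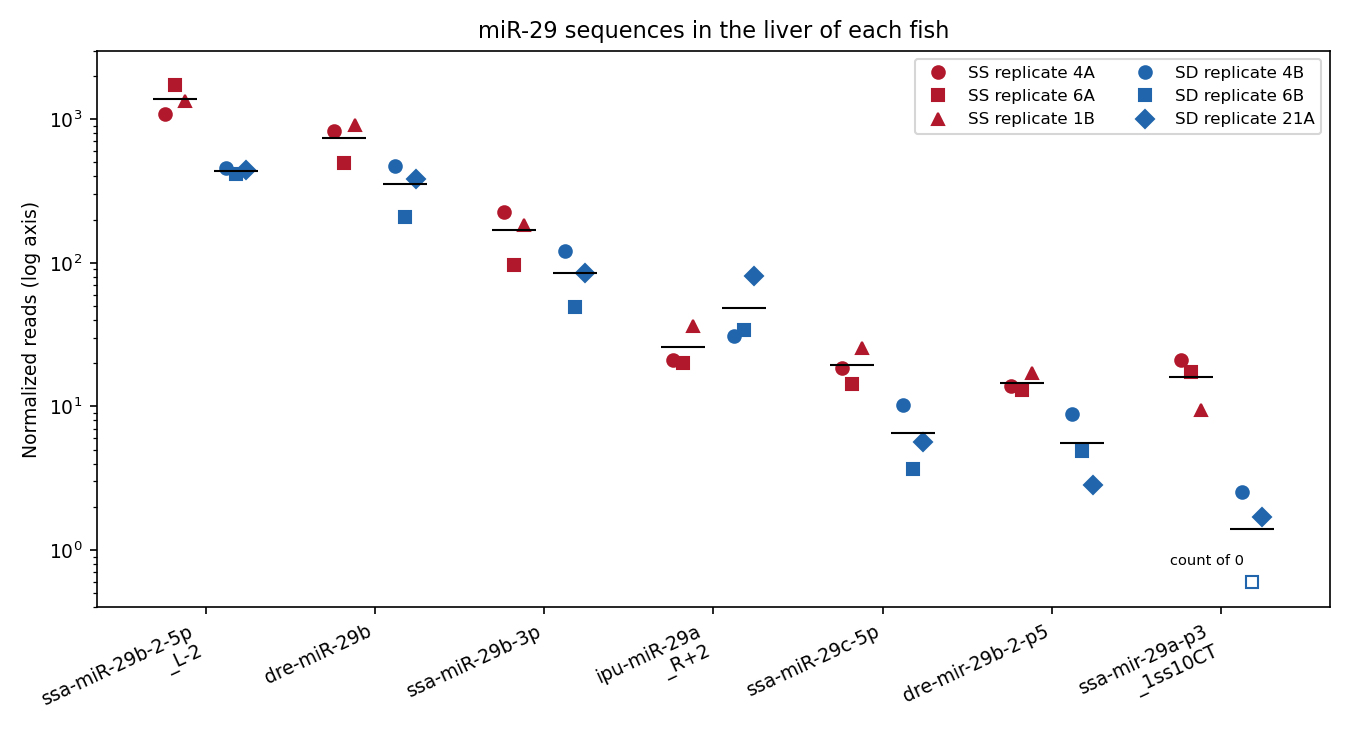
Normalized reads (log axis) of the 7 miR-29 sequences with at least 53 counts in all, with 1 point per fish, SS in red left of SD in blue, and a line at the mean of each group; the open square stands for a count of 0. In 5 of the 7 sequences all SS points lie above all SD points, as in 9.55% of the 618 sequences with 10 or more counts. Of these 5, dre-miR-29b overlaps as CPM of the table total, and ssa-mir-29a-p3_1ss10CT has most of its counts from the SS fish. ipu-miR-29a_R+2 is the only 1 of the 7 with a lower SS mean.

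The 5p strand miR-29b-2-5p was the most abundant member and ranked 72nd of the 1389 sequences by mean level. It stood at 1090.45, 1722 and 1344 normalized reads in SS fish 4A, 6A and 1B, against 456, 414 and 445 in SD fish 4B, 6B and 21A. The lowest SS fish was 2.39 times the highest SD fish, and the SD fish were within a factor of 1.099 of each other. The means were 1385 ± 318 in SS fish, against 438 ± 21.4 in SD fish (mean ± SD, n = 3 each), and the fitted log2 fold change was 1.63 ± 0.23 (standard error; edgeR, adjusted p = 0.0213). The fitted change kept its size without any 1 library, from 1.47 to 1.81 on the log2 scale. The call itself did not hold in edgeR when 1 fish was left out, if that fish was SS replicate 1B (adjusted p = 0.0789), SD replicate 4B (0.143), SD replicate 6B (0.106) or SD replicate 21A (0.168), and adjusted p values ran from 6.85e-07 to 0.444 over all alternatives.

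ipu-miR-29a_R+2 has the same seed as miR-29b-2-5p and the single substitution T20C in the 21 bases compared, but its mean was lower in SS fish. It stood at 21.1, 20.2 and 36.6 normalized reads in SS fish 4A, 6A and 1B, against 31.1, 34.2 and 81.2 in SD fish 4B, 6B and 21A. The groups overlapped, and SD replicate 21A was the highest of the 6 fish. The log2 fold change of -0.94 ± 0.50 (standard error; edgeR, adjusted p = 0.509) did not pass, and it was -0.35 without SD replicate 21A. Within each fish, miR-29b-2-5p was 51.7, 85.4 and 36.7 times as abundant as ipu-miR-29a_R+2 in SS fish 4A, 6A and 1B, against 14.6, 12.1 and 5.49 times in SD fish 4B, 6B and 21A. The 2 near-identical sequences were therefore not in 1 fixed proportion across the libraries, and their ratios did not overlap between the groups. The numerator, miR-29b-2-5p, already separates the groups by itself, so the separation of the ratios is not a result about the pair. This pair was chosen after its values were seen, and the ratio was not tested.

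The other 5p forms were rare. ssa-miR-29c-5p, whose seed differs from that of miR-29b-2-5p at 1 base, had 18.7, 14.4 and 25.7 normalized reads in SS fish 4A, 6A and 1B, against 10.2, 3.67 and 5.64 in SD fish 4B, 6B and 21A. The groups did not overlap, but barely so as CPM of the table total (6.81 in SS replicate 6A, against 6.76 in SD replicate 4B), the SD values rested on 8, 3 and 10 counts, and the log2 fold change of 1.60 ± 0.47 (standard error; edgeR, adjusted p = 0.345) did not pass. dre-mir-29b-2-p5, set 1 base further in, differed from miR-29b-2-5p at 8 of the 22 bases compared and has another seed. The comparison allowed no gap, so 1 extra base inside a sequence counts as several differences. The sequence was below the filter on low counts. It had 13.8, 12.97 and 17.1 normalized reads in SS fish 4A, 6A and 1B, against 8.90, 4.89 and 2.82 in SD fish 4B, 6B and 21A. These groups did not overlap either, and barely so as CPM of the table total (6.13 in SS replicate 6A, against 5.92 in SD replicate 4B). Without the filter its log2 fold change was 1.52 ± 0.62 (standard error; edgeR, adjusted p = 0.383). fru-mir-29b-2-p5_1ss18GA and ssa-miR-29b-3-5p_L-1, with 10 and 9.5 counts in all, overlapped between the groups. The remaining 3 5p members had 0.5 to 1.33 counts in all.

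The 3p strands, the arm known for repression of collagen transcripts in mammals, were led by dre-miR-29b, 83rd of the 1389 sequences. It stood at 823, 497 and 905 normalized reads in SS fish 4A, 6A and 1B, against 469, 208 and 385 in SD fish 4B, 6B and 21A. The groups did not overlap, but the lowest SS fish, 6A, was only 1.06 times the highest SD fish, 4B. As CPM of the table total the order of these 2 fish turned, with 235 CPM in SS replicate 6A, against 312 CPM in SD replicate 4B, so that the groups overlapped on that scale. The means were 742 ± 216 in SS fish, against 354 ± 133 in SD fish (mean ± SD, n = 3 each), and the log2 fold change of 1.06 ± 0.37 (standard error; edgeR, adjusted p = 0.357) did not pass. Its adjusted p was 0.149 to 0.616 over the alternatives, so no setting called it.

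ssa-miR-29b-3p, with the same seed, had 225, 96.5 and 183 normalized reads in SS fish 4A, 6A and 1B, against 121, 49.5 and 84.6 in SD fish 4B, 6B and 21A. SS replicate 6A lay below SD replicate 4B, so the groups overlapped. The means were 168 ± 65.3 in SS fish, against 84.9 ± 35.6 in SD fish (mean ± SD, n = 3 each), and the fitted log2 fold change was 0.99 ± 0.44 (standard error; edgeR, adjusted p = 0.449), which did not pass. The ratio of dre-miR-29b to ssa-miR-29b-3p was 3.66 to 5.15 in SS and 3.88 to 4.55 in SD fish, so it overlapped between the groups. On average dre-miR-29b was 4.59 ± 0.805 times as abundant as ssa-miR-29b-3p in SS fish, against 4.21 ± 0.331 times in SD fish (mean ± SD, n = 3 each). dre-miR-29a_R+1, which is ssa-miR-29b-3p with 1 base more, had 12.8 counts in all and 1.80 to 3.11 normalized reads in SS against 1.02 to 1.59 in SD fish, from 0.833 to 3.83 counts per fish, around the 3 counts that a count of 0 allows. The other 3p members had 0.5 to 3 counts in all.

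**Figure D2:**
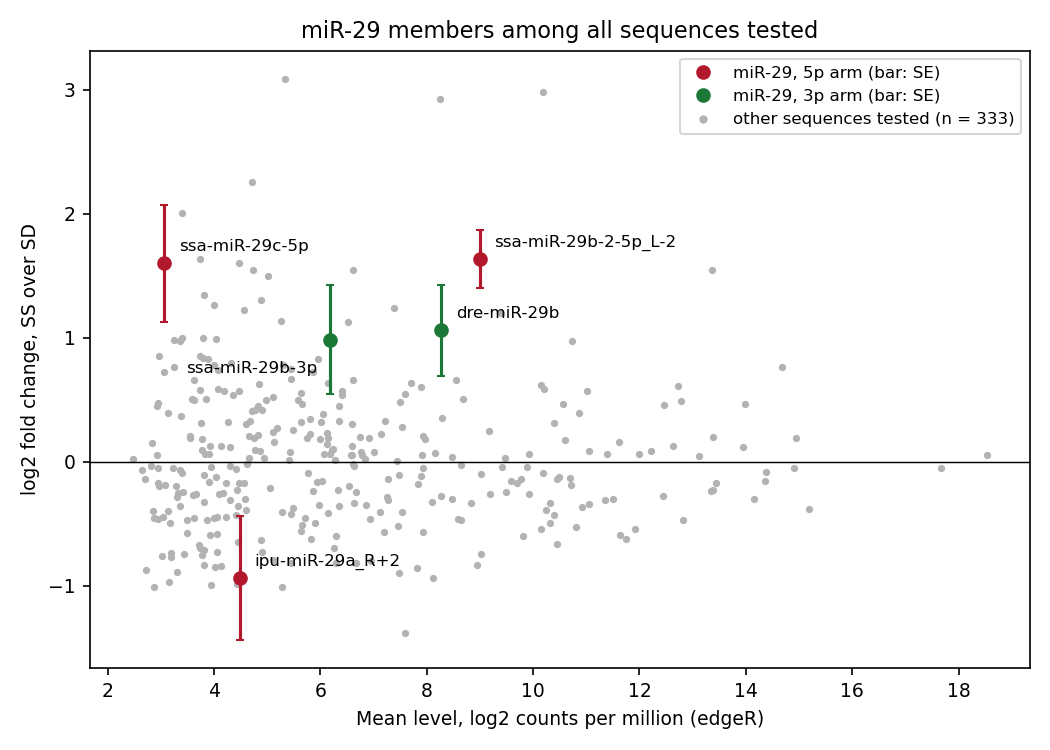
log2 fold change, SS over SD, against the mean level in log2 CPM, counts scaled to a common library total, for the 338 sequences tested, with the 5 miR-29 members in colour by arm and bars of 1 standard error. The 4 members above 0 lie between 0.99 and 1.63, and ipu-miR-29a_R+2 lies at -0.94.

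By arm, the 5p strands together stood at 1147, 1771 and 1423 normalized reads in SS fish 4A, 6A and 1B, against 512, 459 and 541 in SD fish 4B, 6B and 21A. The 3p strands together stood at 1051, 595 and 1093 in SS fish 4A, 6A and 1B, against 594, 259 and 471 in SD fish 4B, 6B and 21A. The SS fish lay above the SD fish in both arms, by a wide margin in the 5p arm and barely in the 3p arm, where SS replicate 6A was next to SD replicate 4B. The separation of the 3p sums depended on the scaling. As CPM of the table total they were 601, 282 and 677 in SS fish 4A, 6A and 1B, against 395, 140 and 247 in SD fish 4B, 6B and 21A, so that the groups overlapped, as they did with TMM library sizes. The 5p sums did not overlap under any of the 4 scalings. The ratio of SS to SD means was 2.87 for the 5p and 2.07 for the 3p arm. Most of the 5p sum was miR-29b-2-5p, on average 1385 of 1447 normalized reads in SS and 438 of 504 in SD fish. The 5p sum therefore largely repeats that 1 sequence and does not describe the arm as a whole. ipu-miR-29a_R+2, the next most abundant 5p form, had a lower mean in SS fish. The 5p arm exceeded the 3p arm in all 3 SS fish and in SD replicates 6B and 21A, but not in SD replicate 4B.

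Whether the arms moved alike was read from the ratio of 5p to 3p within each fish. It was 1.09, 2.97 and 1.30 in SS fish 4A, 6A and 1B, against 0.862, 1.77 and 1.15 in SD fish 4B, 6B and 21A. The groups overlapped, and their means were 1.79 ± 1.03 in SS fish, against 1.26 ± 0.464 in SD fish (mean ± SD, n = 3 each), a difference within the spread between fish. On the log2 scale the ratio of these means was 0.50 and turned to -0.08 without SS replicate 6A. That fish had the lowest 3p sum and the highest 5p sum of the SS fish, and its family sum lay between those of the other SS fish. As CPM of the table total only its lowest 3p sum remained. Its 5p sum was then 838, against 882 in SS replicate 1B, and its family sum of 1128 was the lowest of the SS fish. Replicates 6A and 6B, which share the number 6 in their labels, had the highest ratio of their groups.

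**Figure D3:**
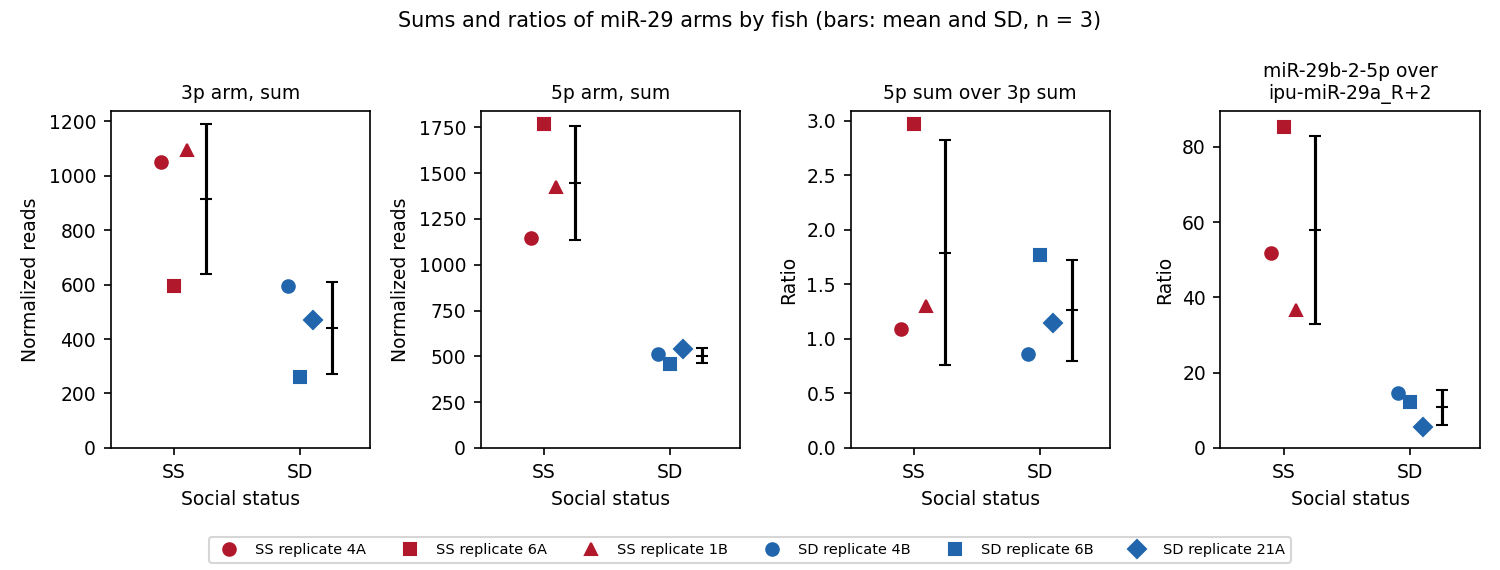
Summed normalized reads of the 3p and the 5p strands, the ratio of 5p to 3p sums, and the ratio of miR-29b-2-5p to ipu-miR-29a_R+2, with 1 point per fish, SS left of SD, and the mean with SD (n = 3) beside the points. The 5p sums (1147 and above in SS, 541 and below in SD) do not overlap, and most of each sum is miR-29b-2-5p. The ratio of the 2 near-identical 5p forms (36.7 and above in SS, 14.6 and below in SD) does not overlap either. Its numerator, miR-29b-2-5p, already separates the groups by itself, and the ratio was not tested. The ratio of the arms overlaps.

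Of the 4 members of neither arm, 1 had more than 3 counts. ssa-mir-29a-p3_1ss10CT, a 17-base sequence without the 3p seed (tTAATGTTctcagtgtc, bases 2 to 8 in capitals as above), is shown as the most abundant of them. It had 26, 12 and 10 counts in SS fish 4A, 6A and 1B, against 2, 0 and 3 in SD fish 4B, 6B and 21A. In normalized reads this was 21.1, 17.3 and 9.51 in the SS fish, against 2.54, 0 and 1.69 in the SD fish. A count of 0 in SD replicate 6B allows up to 3 counts, or 3.67 normalized reads, for counting error only, and every SS fish still lay above that. No such allowance was made for the 2 and 3 counts of SD replicates 4B and 21A, or for the SS counts. It was below the filter on low counts, so the main edgeR fit did not test it. The edgeR fit without that filter called it higher in SS fish (adjusted p = 0.000623), by 3.34 on the log2 scale. That fit called 18 of 1283 sequences, where the main fit called 2 of 338. ssa-mir-29a-p3_1ss10CT reached a total of 10 counts only through the SS fish. Its call is therefore not used as support, and the difference is given as a description. The other 3 members of neither arm held 0.5 to 3 counts in all, and 1 of them was a plain repeat of 2 bases.

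The tested sequence most like miR-29b-2-5p over the 6 libraries outside the family was ssa-miR-128-3-5p, with a root-mean-square difference of 0.19 between their log2 values, each centred on its mean. It had 20.3, 50.4 and 32.3 normalized reads in SS fish 4A, 6A and 1B, against 11.4, 9.78 and 10.7 in SD fish 4B, 6B and 21A. Like miR-29b-2-5p, it was highest in SS replicate 6A and even among the SD fish, which follows from its choice by likeness. ssa-miR-146a-3p_R-2 (0.34), ssa-miR-192a-3p (0.48), ssa-mir-30e-1-p3 (0.49) and fru-miR-21 (0.53) followed, where the median over the other tested sequences was 0.96. Of the family itself, ssa-miR-29c-5p was at 0.49 and dre-miR-29b at 0.60.

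For dre-miR-29b the nearest sequence of all was its own relative ssa-miR-29b-3p (0.18), followed by ssa-miR-29c-5p (0.28). Outside the family ssa-miR-725-3p (0.32), ssa-miR-203a-3p (0.32), PC-3p-2358_312 (0.38), dre-miR-210-3p_R-2 (0.39) and ssa-miR-19c-3p_R-1 (0.41) were nearest, against a median of 0.84. ssa-miR-725-3p had 61.7, 24.5 and 82.7 normalized reads in SS fish 4A, 6A and 1B, against 24.1, 12.2 and 19.2 in SD fish 4B, 6B and 21A. In ssa-miR-725-3p as in dre-miR-29b, replicates 6A and 6B were the lowest of their groups, which the choice by likeness favours. The 5 sequences outside the family nearest to the 5p strand were not those nearest to the 3p strand. Lists this short would seldom share a sequence by chance, so this cannot show whether the arms vary with different sequences. The family was also left out of these lists. With members kept, ssa-miR-29c-5p would be in both, at 0.492 from miR-29b-2-5p (ssa-mir-30e-1-p3 at 0.493) and 0.28 from dre-miR-29b.

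The tissue label was checked by miR-122, the main miRNA of hepatocytes, at 576193 to 813536 summed normalized reads in SS and 597730 to 702931 in SD fish. Markers of other cells overlapped between the groups in all lists, which is common with 3 fish a group. Over the 618 sequences with 10 or more counts, 9.55% had all SS fish above the SD fish and 7.28% all below. Single miRNAs of the lists overlapped too but differed in direction, with median log2 fold changes over tested sequences from -0.75 (miR-214) to 1.23 (miR-155). Leukocyte miRNAs (miR-142, miR-150, miR-155 and miR-223, 18 sequences) summed to 1833 to 2173 in SS and 1585 to 2517 in SD fish. Stromal miRNAs (miR-143, miR-145, miR-199 and miR-214, 29 sequences) summed to 75368 to 103299 in SS and 81191 to 98419 in SD fish. Endothelial miR-126 (4 sequences) summed to 15357 to 26223 in SS and 15920.3 to 19380 in SD fish. Erythrocyte miRNAs (miR-144 and miR-451, 8 sequences) summed to 1822 to 7856 in SS and 4950.3 to 6719 in SD fish. Pancreas miRNAs (miR-216, miR-217 and miR-375, 10 sequences) summed to 153 to 607 in SS and 193 to 226 in SD fish, and muscle miRNAs (miR-1, miR-133 and miR-206, 5 sequences) to 46.0 to 83.8 in SS and 27.7 to 75.3 in SD fish. Their part in the levels of miR-29 was not tested.

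**Figure D4:**
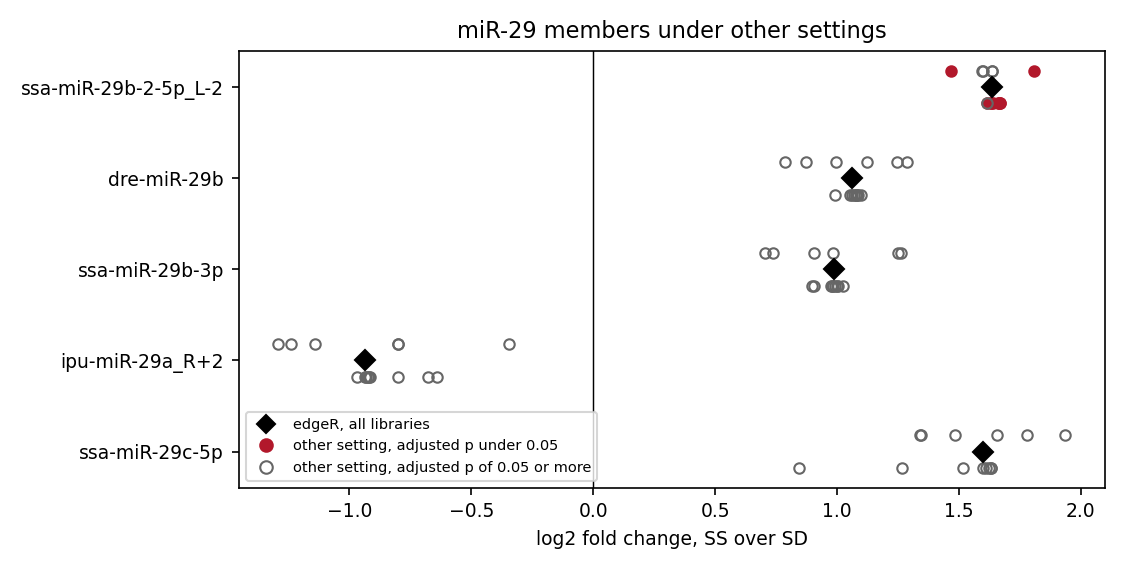
log2 fold change, SS over SD, of the 5 tested members in the edgeR fit of all libraries (black) and under 14 or 15 other settings each, those without 1 library drawn above and the others below the black point; filled points passed an adjusted p under 0.05. Every point of a member lies on the same side of 0, and miR-29b-2-5p (1.47 to 1.81) is the only 1 of the 5 with filled points.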

How the data were processed

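Small RNA of 6 livers, 3 SS and 3 SD, was sequenced. After adapter removal the authors retained inserts between 15 and 32 nt, took out other RNA classes and searched fish miRNAs of miRBase 21 with Bowtie, version 1.1.1 by the submitters' processing notes, allowing 1 mismatch in the first 16 nt. The authors deposited expected counts for 1389 sequences, with shared reads split, and a normalized signal, which is the count divided by a library size parameter (0.694 to 1.77), with a count of 0 listed as 0.001 and set to 0 here. How the parameter was derived is not given in the sources used here. A deposited table of read counts per filtering step gave 2420009 to 6061431 mappable reads per library. Genome positions were not used here.

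Counts were rounded, filtered by edgeR 4.0.16 (filterByExpr, minimum count 10) in R 4.3.3, normalized by TMM and compared between groups by the quasi-likelihood test, p values being adjusted (Benjamini-Hochberg) over all 338 sequences left, at a threshold of 0.05. The quasi-likelihood test gives no standard error. Those printed are the log2 fold change, without its sign, divided by the square root of the test's F statistic. Sums, ratios and distances (log2 of normalized reads plus 1) were made in Python 3.11.15 with pandas 2.3.3, and have no test. The 3 counts allowed for a count of 0 cover counting error only. Alternatives were DESeq2 1.42.0, limma 3.58.1 on log2 normalized reads, other scalings and filters, fractional counts, a block for the label number and leaving out each library. The overlap of the groups under TMM, RLE and table totals was added after seeing the data. The members, marker lists, sequence rules and naming rule were chosen with earlier results of these data known. The naming rule took the members past the filter, the most abundant of each arm class and the 5 nearest sequences to the leading 5p and 3p strands. Other members named were chosen after their values were seen. Comparisons of the authors and their real-time RT-PCR were not used.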

Additional observations from a re-analysis of the deposited data

How the results depend on the processing

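The 4 tested members above 0 and the 1 below 0 kept their direction under every alternative that could be fitted, and so did the family, 3p and 5p sums, with log2 ratios of means of 1.16 to 1.46, 0.78 to 1.32 and 1.35 to 1.66 over all alternatives. The ratio of 5p to 3p ranged from -0.075 (without SS replicate 6A) to 0.83 on the log2 scale when 1 library was left out; that value is the only reversal. The count of called sequences, 2 of 338, was 18 of 1283 without the filter on low counts, 7 with DESeq2, and 0 to 6 when 1 library was left out (0 without SS replicate 1B, SD replicate 4B or SD replicate 21A, with 20, 26 and 20 sequences higher and 11, 26 and 7 lower at an unadjusted p under 0.05 from edgeR). Called members numbered 2 without the filter, which adds ssa-mir-29a-p3_1ss10CT, a sequence with few counts outside the SS fish, and 0 or 1 when 1 library was left out. The fish labels share the numbers 4 and 6 between the groups, and nothing used here states that a number marks a dyad. Deviations of same-numbered fish from their group means correlated at 0.15 and 0.45 across 338 sequences. No pair with different numbers was compared, so these values cannot show whether a number marks a dyad. With the replicate block, 0 sequences and 0 members were called by edgeR. At an unadjusted p under 0.05 in that edgeR fit, 16 sequences were higher and 8 lower (3 members higher). There miR-29b-2-5p had a log2 fold change of 1.62 (edgeR, adjusted p = 0.444). The numbers 1 and 21 occur once each, so SS replicate 1B and SD replicate 21A add nothing to the contrast in that fit. Its loss of calls therefore cannot be told apart from the loss of data. ssa-miR-29c-5p was not left by a minimum count of 30. Of the 10 members with under 10 counts, 7 could be fitted without the filter, and edgeR called 0 of them (0 also at an unadjusted p under 0.05); what difference this depth could show was not measured.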
